A study of Komagataella pastoris with 60 samples.

Results

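The 12 libraries of the *rps25*∆ strain at 24, 48 and 72 h in methanol medium, out of 60 libraries in the series, were compared with each other over time. They were chosen by the genotype and time in their labels, and each time had 2 replicates of total mRNA and 2 of RNC-mRNA, the mRNA bound to ribosome–nascent chain complexes. The strain is *Pichia pastoris* GS115 without *RPS25*, made by PCR disruption with a Cre/lox-recycled marker. Like every strain of the series, it carries the phytase gene (Phy) of *Citrobacter amalonaticus* behind the methanol-induced AOX1 promoter. The wild type (wt), which is GS115 with the same Phy cassette and *RPS25* intact, was sampled at the same times with the same number of replicates. Cultures grew in BMMY medium with methanol, and cycloheximide was given to hold ribosomes on the mRNA. Each sample was split, and ribosome–nascent chain complexes were pelleted through sucrose from one of the aliquots. Whether *rps25*∆ was represented by more than 1 transformant is not stated in the labels or the methods.

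The ribosome has a large and a small subunit, and both are built from rRNA and ribosomal proteins (RPs). In *Saccharomyces cerevisiae* the RP genes are transcribed together at a rate tied to growth and nutrients, and they take up much of the translating mRNA of growing cells. S25, the product of *RPS25*, lies on the head of the small subunit and is not essential in *S. cerevisiae*. Chaperones bind nascent or unfolded proteins and help them to fold. The AOX1 promoter is repressed by glucose and switched on by methanol.

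*RPS25* (Pipas_chr2-2_0326) had 3 to 9 reads in the 6 *rps25*∆ mRNA libraries, against at least 183 in each of the 24 libraries of other strains. In RNC-mRNA it had 2 to 15 reads, against at least 405. The *rps25*∆ libraries held 3096579 to 15476958 host gene reads in mRNA and 2945119 to 13532265 in RNC-mRNA. The mRNA libraries of 24 h were the deepest, with at least 12551966 reads, while those of 48 and 72 h had at most 5965634. In RNC-mRNA the 24 h libraries had at least 6953599 reads and those of 48 and 72 h at most 6455617. Depth therefore cannot be told apart from the change since 24 h in this strain in either assay. In RNC-mRNA the 72 h libraries (2945119 and 3429139 reads) were also less deep than those of 48 h (6455617 and 5073948). In mRNA the depths of 48 h (3663663 and 3099610) and 72 h (3096579 and 5965634) overlapped. Replicates had correlations of log2 counts over genes of 0.980 to 0.996, and their counts differed by more than sampling noise (chi-square per degree of freedom 4.26 to 15.8), so each library counted as a replicate. Within the *rpl9a*∆ strain, which entered the tests only through the filter, the scaling and the estimate of the spread, replicates lay farther apart (correlations of 0.947 and 0.899 in RNC-mRNA at 48 and 72 h and 0.951 in mRNA at 48 h). Counts of calls are therefore also given without the *rpl9a*∆ libraries. Those fits kept *rpl38*∆, whose RNC-mRNA replicates at 72 h also differed widely. Their chi-square per degree of freedom was 120, against 100 and 439 in *rpl9a*∆ RNC-mRNA at 48 and 72 h. Levels below are CPM, reads per 1000000 of a library's reads after TMM scaling, which evens out the composition of the libraries. Changes are log2 fold changes, called at an adjusted p under 0.05 by edgeR's quasi-likelihood F-test, adjusted after Benjamini and Hochberg over every gene tested. The comparisons of 48 and of 72 h share the 24 h libraries. In bulk cultures, fewer cells with a transcript and less of it in each cell cannot be told apart.

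Phy mRNA in *rps25*∆ fell from 24 to 48 h and stood above both at 72 h. The 24 h replicates had 8125 and 6179 CPM, the 48 h replicates 4765 and 4922, and the 72 h replicates 11920 and 11304. The values of no time overlapped with those of another. Such separation was common in mRNA. At 48 h both replicates lay above both of 24 h for 36.2% of all genes tested and below for 43.2%. At 72 h the shares were 38.6 and 40.3%. The log2 fold change of Phy was −0.56 at 48 h (standard error 0.208, adjusted p = 0.0349) and 0.70 at 72 h (0.209, adjusted p = 0.00961), both against 24 h. From 48 to 72 h it was 1.26 (adjusted p = 9.76e-05). Without replicate 1 of 24 h the change at 48 h was −0.35 and missed the threshold (adjusted p = 0.293). It also missed the threshold without replicate 1 of 48 h (adjusted p = 0.172), replicate 2 of 48 h (0.108) or replicate 2 of 72 h (0.060). The rise at 72 h missed it without replicate 2 of 24 h (0.52, adjusted p = 0.130) or replicate 1 of 72 h (0.66, adjusted p = 0.051).

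Phy RNC-mRNA showed the same order of levels with a wider spread. The replicates had 4697 and 4111 CPM at 24 h, 1692 and 1580 at 48 h and 6517 and 10688 at 72 h. Again no time overlapped with another, but the 72 h replicates lay far apart. In this assay both 48 h replicates lay above both of 24 h for 39.3% of all genes tested and below for 38.9%. At 72 h the shares were 33.7 and 35.0%. Neither change of Phy from 24 h passed the test (−1.43, standard error 0.563, adjusted p = 0.0642 at 48 h, and 0.97, standard error 0.558, adjusted p = 0.252 at 72 h). Without the *rpl9a*∆ libraries both passed, with −1.41 (adjusted p = 0.00293) and 0.98 (adjusted p = 0.041). The rise from 48 to 72 h was 2.39 (adjusted p = 0.00930) and missed the threshold without replicate 1 or 2 of 48 h or replicate 2 of 72 h. The change in RNC-mRNA was not distinguishable from that in mRNA at either time (difference −0.91, adjusted p = 0.395, and 0.26, adjusted p = 0.884).

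**Figure D1:**
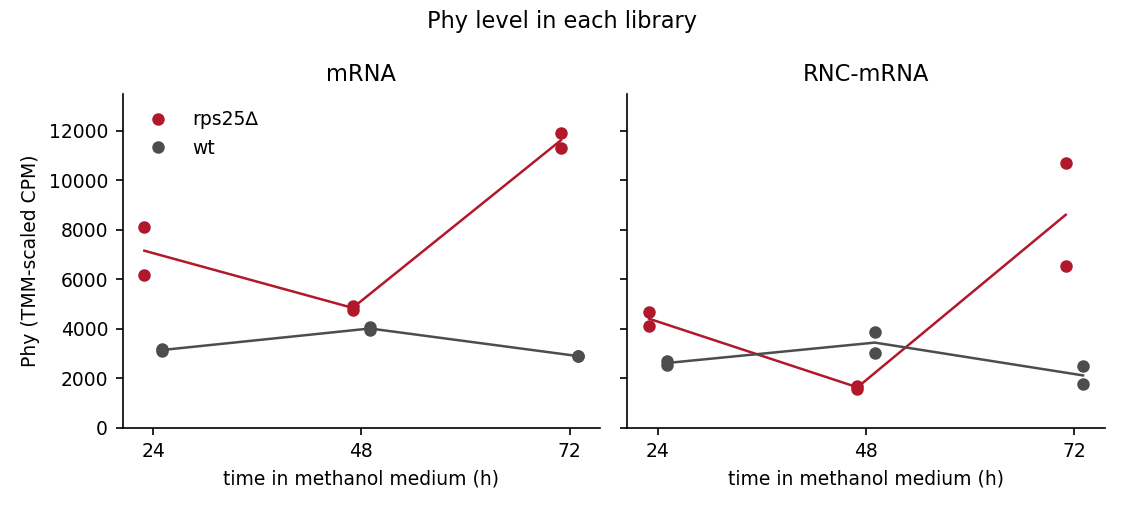
Phy level in TMM-scaled CPM against time in methanol medium (h) in mRNA and RNC-mRNA; each point is 1 library of *rps25*∆ or wt and lines join the means. In *rps25*∆ the level is lowest at 48 h and highest at 72 h in both assays, while in wt mRNA it stays between 2892 and 4082 CPM.

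Many host genes changed with time in the strain. Of 5229 genes tested in mRNA, 1044 (20.0%) were higher and 1170 (22.4%) lower at 48 h than at 24 h, and 1154 (22.1%) were higher and 1147 (21.9%) lower at 72 h. Of 5210 genes tested in RNC-mRNA, 729 (14.0%) were higher and 647 (12.4%) lower at 48 h, and 454 (8.71%) were higher and 497 (9.54%) lower at 72 h. A difference among the 3 times was called for 3143 genes (60.1%) in mRNA and for 1808 (34.7%) in RNC-mRNA. The RNC-mRNA counts rose to 2323 and 1701 without the *rpl9a*∆ libraries. They fell to between 529 and 723 at 48 h without any one of the 24 or 48 h libraries, and to between 523 and 630 at 72 h without any one of the 24 or 72 h libraries, the lowest being without replicate 1 of 24 h each time. With library size alone in place of TMM, the median of all genes in RNC-mRNA moved by 0.24 at 48 h and 0.12 at 72 h, and the calls split into 1185 higher and 407 lower and into 582 and 410. From 72 against 48 h in RNC-mRNA the median moved by −0.12 with that scaling, and the calls went from 331 higher (6.35%) and 464 lower (8.91%) to 202 and 541.

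Among genes without a name in the sources that were called at 72 h in both assays, those 2 whose mean change was highest and those 2 whose mean change was lowest are given. Pipas_chr1-1_0449 had 110 and 113 CPM of mRNA at 24 h, 1634 and 1656 at 48 h and 5323 and 4835 at 72 h. Its RNC-mRNA went from 247 and 216 to 4944 and 5616 and then to 12668 and 11997. Each time lay wholly above the one before, with log2 fold changes at 72 h of 5.51 in mRNA (adjusted p = 1.85e-14) and 5.73 in RNC-mRNA (2.77e-09). Pipas_chr2-1_0640 rose from 182 and 206 CPM of mRNA to 979 and 1083 and then to 7743 and 7379, with a log2 fold change of 5.28 at 72 h (4.83e-17) and of 4.54 in RNC-mRNA (5.65e-10). Pipas_chr1-1_0479 ran the other way, from 633 and 523 CPM of mRNA to 57.0 and 40.8 and then to 9.18 and 6.40. Its log2 fold change at 72 h was −6.27 (1.06e-13) in mRNA and −7.42 (4.37e-07) in RNC-mRNA. Pipas_chr2-1_0693, at 21.8 and 19.8 CPM of mRNA at 24 h, was at 0.612 and 0.801 at 72 h (−4.79, adjusted p = 5.02e-10), where replicate 2 of its RNC-mRNA had 0 reads.

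The RP genes fell together at 48 h, and the share of reads on them at 72 h lay between those of 24 and 48 h. They took 4.57 and 4.86% of host gene reads in the 24 h mRNA libraries, 2.58 and 2.41% at 48 h and 3.78 and 3.15% at 72 h. In RNC-mRNA they took 11.6 and 11.4%, then 7.02 and 7.31%, then 9.24 and 8.34%. In both assays the 48 h libraries lay below all others and the 72 h libraries below those of 24 h. In wt the same share went from 3.63% ± 0.336 (SD, n = 2) at 24 h to 2.84% ± 0.0636 and 2.49% ± 0.0892 in mRNA, with the lowest value at 72 h. Beside this, the share of the chaperone genes in *rps25*∆ mRNA was 4.51 and 4.76%, 4.03 and 3.79%, and 4.46 and 4.52%. In RNC-mRNA the chaperone share was 4.43 and 4.45% at 24 h, 3.10 and 2.86% at 48 h and 3.70 and 3.69% at 72 h, the same order of times as for the RP genes.

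**Figure D2:**
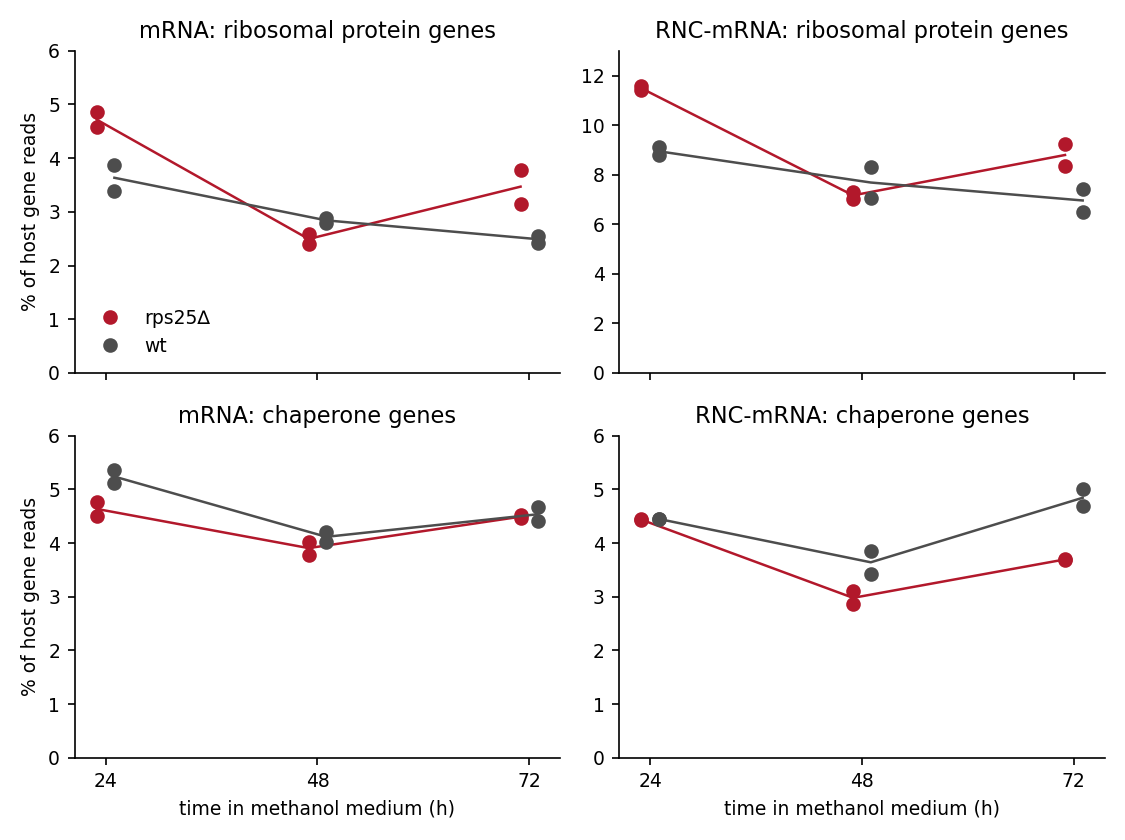
Share of host gene reads (%) on ribosomal protein genes and on chaperone genes against time in methanol medium (h); each point is 1 library of *rps25*∆ or wt and lines join the means. The ribosomal protein share of *rps25*∆ is lowest at 48 h in both assays, at 2.41 to 2.58% in mRNA and 7.02 to 7.31% in RNC-mRNA.

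All 85 RP genes other than *RPS25*, 49 of the large subunit with its P proteins and 36 of the small subunit, passed the filter on low counts. *RPL28* and *RPS26* are counted among them by their names, although the source of the list describes each as another protein. In mRNA, 72 of the 85 fell at 48 h, against 22.4% of all genes, with a median log2 fold change of −0.94 where that of all genes was −0.05. The large subunit gave 42 of 49 and the small subunit 30 of 36, with medians of −0.94 and −0.93. At 72 h 25 of the 85 were lower than at 24 h, against 21.9% of all genes, with a median of −0.41. From 48 to 72 h 41 of the 85 rose, against 17.9% of all genes, with a median of 0.49. The mean level was lowest at 48 h for 77 of the 85, against 33.8% of all genes tested.

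The count at 48 h was 60 to 73 genes when any one *rps25*∆ library was left out and 77 without *rpl9a*∆. At 72 h 74 genes were lower without *rpl9a*∆ but 4 without replicate 2 of 72 h, 9 and 14 without replicate 2 or 1 of 24 h, and 41 with library size alone. The count of genes that rose from 48 to 72 h was 62 without *rpl9a*∆, and it fell to 7, 6 and 2 without replicate 1 of 48 h, replicate 2 of 48 h or replicate 1 of 72 h. Medians in mRNA changed little with scaling, to −0.95 at 48 h and −0.46 at 72 h with library size alone.

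**Figure D3:**
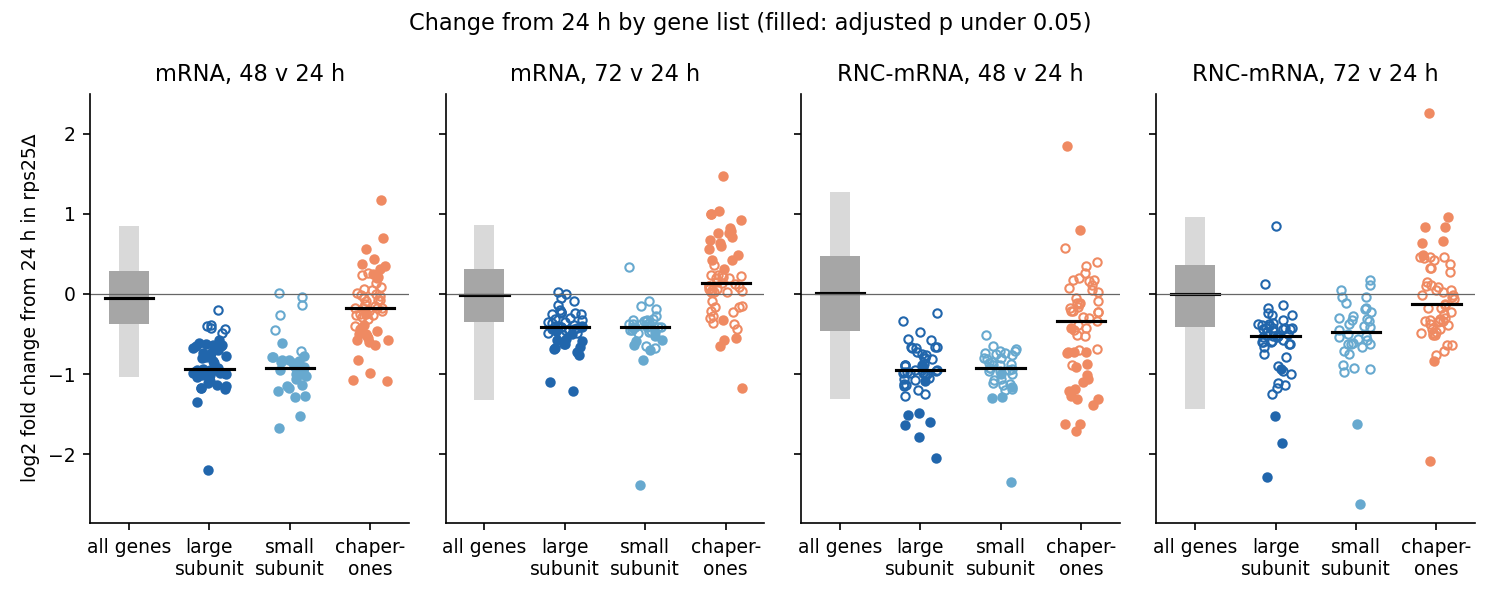
Log2 fold change from 24 h in *rps25*∆ for 49 large-subunit, 36 small-subunit and 55 chaperone genes in mRNA and RNC-mRNA; each point is 1 gene, filled where the adjusted p is under 0.05, and black lines are medians. Grey bars span the middle 50% (dark) and 90% (light) of all genes tested, and the ribosomal protein medians lie below 0 in each panel, at −0.94 in mRNA at 48 h.

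Among the RP genes of the large subunit, *RPL9B* fell most at 48 h. Its mRNA had 407 and 444 CPM at 24 h, 98.6 and 87.0 at 48 h and 195 and 173 at 72 h. Each time stood apart, and the log2 fold change was −2.19 at 48 h (standard error 0.329, adjusted p = 2.37e-05), −1.21 at 72 h (adjusted p = 0.00330) and 0.98 between them (adjusted p = 0.0256). *RPL26*, whose protein sits near the exit of the nascent chain tunnel, went from 518 and 617 CPM to 236 and 209 (−1.35, adjusted p = 7.42e-05) and was at 426 and 287 at 72 h. *RPL22* was called at both times. It had 123 and 132 CPM at 24 h, 57.0 and 64.1 at 48 h and 62.7 and 57.0 at 72 h, a log2 fold change of −1.10 at 72 h (adjusted p = 0.000102). The smallest called falls at 48 h were those of *RPP1B* (−0.62), *RPS3* (−0.62), *RPL5* (−0.61) and *RPL23* (−0.58). *RPP1B* encodes a P protein of the stalk that recruits elongation factors, *RPS3* a protein at the mRNA entry site, and *RPL5* a protein that binds the smallest rRNA of the large subunit. The call of *RPS3* was near the threshold (adjusted p = 0.0469) and was lost when any one library was left out, and those of *RPL5* and *RPL23* were lost without any one of the 24 or 48 h libraries.

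Of the small subunit, the paralogs *RPS22A* and *RPS22B* fell most at 48 h. *RPS22B* mRNA had 26.6 and 29.0 CPM at 24 h, 7.78 and 9.81 at 48 h and 7.65 and 3.84 at 72 h. It was the only gene of the list with a log2 fold change under −2 at 72 h (−2.38, standard error 0.32, adjusted p = 3.28e-06, against −1.67, adjusted p = 0.000186 at 48 h). Its paralog *RPS22A* went from 295 and 388 CPM to 119 and 119 (−1.52, adjusted p = 0.000276) and was back at 265 and 158 at 72 h (−0.70, adjusted p = 0.0464). The 72 h call of *RPS22A* was lost without replicate 2 of 24 h, either replicate of 48 h or replicate 2 of 72 h. *RPS28A*, at 13.9 and 17.1 CPM at 24 h, had 10.1 and 7.84 at 72 h (−0.82, adjusted p = 0.0473). The smallest called falls at 72 h were those of *RPP0* (−0.46), the base of the P stalk, *RPL9A* (−0.44), *RPS24* (−0.42) and *RPL18* (−0.41). All of these 4, and *RPS28A*, lost the call without replicate 1 of 24 h, replicate 2 of 24 h or replicate 2 of 72 h. *RPP0* also lost it without replicate 1 of 72 h, and *RPS24* and *RPS28A* without any one mRNA library of the strain.

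RNC-mRNA of the RP genes gave fewer calls than their mRNA. With TMM scaling all 85 had a negative log2 fold change at 48 h, with a median of −0.94. Both 48 h replicates of all 85 then lay below both of 24 h, where 38.9% of all genes tested did. Of these, 13 passed the test, against 12.4% of all genes called lower, and 6 passed at 72 h (median −0.52) against 9.54%. Without the *rpl9a*∆ libraries 77 and 28 passed. DESeq2's Wald test called 30 and 8. Without any one of the 24 or 48 h libraries 2 to 5 passed at 48 h, and without any one of the 24 or 72 h libraries 3 or 4 passed at 72 h. From 48 to 72 h the median was 0.43, with 0 genes called by edgeR, 8 higher at an unadjusted p under 0.05, 2 by DESeq2 and 15 without *rpl9a*∆.

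*RPS22B* fell most in RNC-mRNA too, from 102 and 87.2 CPM at 24 h to 14.9 and 22.6 at 48 h (−2.34, standard error 0.29, adjusted p = 1.34e-05) and 18.8 and 12.2 at 72 h (−2.62, adjusted p = 2.84e-06). *RPP1A*, which encodes a P protein of the stalk, had 650 and 463 CPM at 24 h, 165 and 202 at 48 h and 117 and 111 at 72 h. Both later times lay below 24 h, with a log2 fold change of −1.60 at 48 h (adjusted p = 0.00349) and −2.29 at 72 h (standard error 0.38, adjusted p = 0.000165). *RPL15*, a core protein of the large subunit, went from 3047 and 2799 CPM to 725 and 971 at 48 h (−1.79, adjusted p = 0.00931). It had 1654 and 2123 at 72 h. *RPL8A* had 254 and 238 CPM, then 79.7 and 78.4, then 86.0 and 85.9 (−1.64, adjusted p = 0.00270, and −1.52, adjusted p = 0.00505), with replicates close to each other at each time. *RPL22* and *RPS12*, a protein of the beak of the small subunit, were called at 72 h with −1.86 (adjusted p = 0.00413) and −1.62 (adjusted p = 0.0223). Among the smallest called falls at 48 h were those of *RPS2* (−1.16), *RPL9A* (−1.09) and *RPL19* (−0.88). The calls of *RPS2* and *RPL19* were lost without any one of the 24 or 48 h libraries, as was that of *RPL9B* at 48 h (−2.05, adjusted p = 0.0246). *RPL9A* was also called at 72 h (−0.93, adjusted p = 0.0181), and lost the call there without any one of the 24 or 72 h libraries. The 48 h call of *RPL9A* was lost without replicate 1 of 48 h (adjusted p = 0.0544), and the 72 h call of *RPL22* without replicate 2 of 72 h (adjusted p = 0.0812). The 48 h calls of *RPL15* and *RPP1A* were lost without replicate 1 of 24 h or replicate 1 of 48 h, and that of *RPS12* without any one of the 24 or 72 h libraries.

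**Figure D4:**
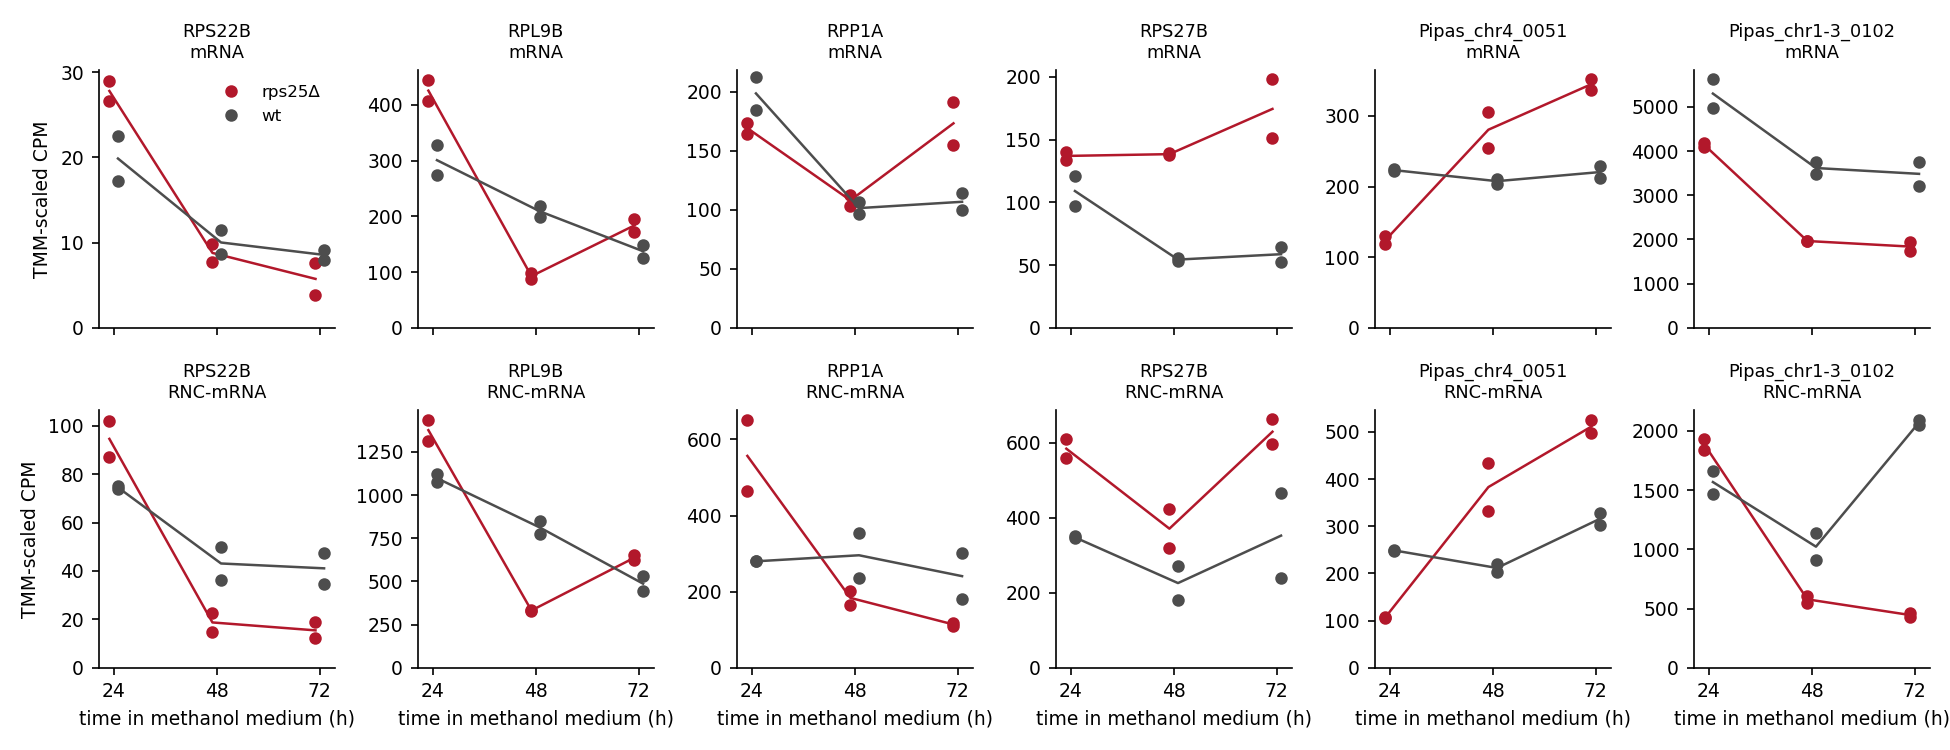
Levels in TMM-scaled CPM against time in methanol medium (h) of *RPS22B*, *RPL9B*, *RPP1A*, *RPS27B* and the chaperone genes Pipas_chr4_0051 and Pipas_chr1-3_0102; each point is 1 library of *rps25*∆ or wt and lines join the means. *RPP1A* of *rps25*∆ is at 191 and 155 CPM in mRNA at 72 h, as high as at 24 h, but at 117 and 111 in RNC-mRNA, below all values of 24 h.

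The paper lists 9 pairs of RP paralogs in this yeast, and members of a pair did not always move alike. Reads that fit both members could have been assigned to either, so their single values are uncertain. In mRNA at 48 h both members were called lower for *RPP1*, *RPL2*, *RPL8*, *RPL9*, *RPS6* and *RPS22*. *RPL2A* and *RPL2B* had −0.74 and −0.98, *RPL8A* and *RPL8B* −0.74 and −0.98, and *RPS6A* and *RPS6B* −0.87 and −1.13. *RPL6A* was lower (−0.69, adjusted p = 0.00116) where *RPL6B* had −0.43 (0.145). *RPS27A* had −0.71 (adjusted p = 0.0544) beside 0.01 for *RPS27B* (0.961), whose 48 h replicates of 138 and 139 CPM lay between the 24 h values of 134 and 140. *RPS28A* and *RPS28B* had −0.45 and −0.04, with adjusted p of 0.281 and 0.931. The calls of *RPL8A* (without replicate 2 of 24 h or either replicate of 48 h), *RPL2A* (without replicate 2 of 48 h) and *RPP1A* (without replicate 1 of 48 h) were lost. At 72 h called members were *RPL9A*, *RPL9B*, *RPS22A*, *RPS22B* and *RPS28A*. In RNC-mRNA at 72 h the pair of *RPP1A* and *RPP1B* had −2.29 and −0.26 (adjusted p = 0.000165 and 0.689), and that of *RPS22B* and *RPS22A* −2.62 and −0.63 (2.84e-06 and 0.465). Differences between members of a pair were not tested.

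Levels were compared between genes only per length, as RPKM, and only for genes listed in 1 segment, since the listed length of the others covers only 1 of their segments. By this measure 53 RP genes had a median mRNA level of 1217 RPKM at 24 h, 623 at 48 h and 904 at 72 h, where all host genes in 1 segment stayed at a median of 61.5, 61.1 and 61.3. In RNC-mRNA the same medians were 2490, 1681 and 1960 RPKM against 37.5, 45.2 and 40.8. Within the list, levels of mRNA at 24 h ran from 82.7 RPKM for *RPS28A* to 2621 for *RPS14*. For 50 chaperone genes the medians of mRNA were 146, 144 and 171 RPKM, with Pipas_chr3_0230 as the highest at each time (6162, 5117 and 5381).

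The 55 chaperone genes, all of which passed the filter, split at 48 h, and at 72 h more of them were called higher than lower in mRNA. The study drew up this list for its own comparison of these libraries, so its counts are not independent evidence, and only the class of these genes is known here, not the name of each. In mRNA at 48 h 9 were higher and 16 lower than at 24 h, against 20.0 and 22.4% of all genes, with a median log2 fold change of −0.17. At 72 h 18 were higher and 5 lower, against 22.1 and 21.9%, with a median of 0.14. From 48 to 72 h 27 rose, against 17.9%, with a median of 0.29. In RNC-mRNA 2 were higher and 19 lower at 48 h (median −0.34), against 14.0 and 12.4% of all genes, and 7 were higher and 2 lower at 72 h (median −0.13), against 8.71 and 9.54%. There 12 rose from 48 to 72 h, against 6.35%, and the median was 0.37. Without the *rpl9a*∆ libraries the numbers higher and lower were 12 and 22 in mRNA and 4 and 24 in RNC-mRNA at 48 h, and 24 and 11 and then 9 and 9 at 72 h. With library size alone the RNC-mRNA split at 48 h was 7 higher and 13 lower. The count of called genes in RNC-mRNA at 48 h was 9 without replicate 2 of 48 h, 12 without replicate 1 of 48 h and 13 without replicate 1 of 24 h, and in mRNA at 48 h it was 10 without replicate 2 of 48 h, 15 without replicate 1 of 48 h and 13 without either replicate of 24 h. In mRNA at 72 h it stayed between 18 and 23, and in RNC-mRNA at 72 h it was 3 without replicate 1 of 24 h or replicate 2 of 72 h and 4 without replicate 2 of 24 h. The 27 chaperone genes that rose in mRNA from 48 to 72 h became 15 or 16 without any one of the 48 or 72 h libraries, and the 12 of RNC-mRNA became 3 without replicate 1 or 2 of 48 h or replicate 2 of 72 h and 7 without replicate 1 of 72 h.

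Pipas_chr4_0051 was the highest chaperone gene by fold change in each of the 4 comparisons. Its mRNA had 118 and 130 CPM at 24 h, 255 and 306 at 48 h and 337 and 353 at 72 h. Its RNC-mRNA had 106 and 108, 332 and 434, and 525 and 498 CPM. Each time lay above the one before in both assays, with log2 fold changes of 1.17 and 1.48 in mRNA (adjusted p = 2.39e-09 and 1.47e-11) and of 1.84 and 2.26 in RNC-mRNA (0.000130 and 9.16e-06). In mRNA at 72 h it was followed by Pipas_chr2-2_0323 (1.04), Pipas_chr2-2_0015 (1.001) and Pipas_chr1-4_0519 (0.99). Pipas_chr2-2_0323 had 408 and 417 CPM at 24 h, 500 and 457 at 48 h and 831 and 865 at 72 h. In RNC-mRNA at 72 h the next highest were Pipas_chr3_0928 (0.95), Pipas_chr1-3_0174 (0.83) and Pipas_chr4_0513 (0.83). The call of Pipas_chr3_0928 was lost without replicate 1 of 24 h or replicate 2 of 72 h, and that of Pipas_chr1-3_0174 without either of these or replicate 2 of 24 h.

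Pipas_chr1-3_0102 fell furthest in 3 of these 4 comparisons. It went from 4084 and 4188 CPM of mRNA at 24 h to 1972 and 1958 at 48 h and 1740 and 1937 at 72 h, and from 1935 and 1836 of RNC-mRNA to 606 and 550 and then 463 and 428. The log2 fold changes were −1.07 and −1.17 in mRNA (adjusted p = 0.000227 and 6.85e-05) and −1.71 and −2.08 in RNC-mRNA (0.000133 and 9.79e-06). Pipas_chr3_0731 had −1.09 in mRNA at 48 h (1222 and 1181 CPM to 555 and 577) and −0.65 at 72 h, the latter lost without replicate 1 of 24 h or replicate 2 of 72 h. Pipas_chr4_0552 turned back, with 3081 and 3094 CPM of mRNA at 24 h, 1765 and 1344 at 48 h and 2950 and 2860 at 72 h. Its fall at 48 h was −0.99 in mRNA (adjusted p = 0.00197) and −1.62 in RNC-mRNA (adjusted p = 0.00390), and its rise in mRNA after that was 0.90 (adjusted p = 0.00518). The fall in RNC-mRNA was lost without replicate 2 of 48 h (adjusted p = 0.0564).

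The change in RNC-mRNA was set against that in mRNA in 1 model over both assays. The difference was called for 157 genes in the positive direction (3.0%) and 220 in the negative (4.2%) of 5241 tested at 48 h, and for 75 (1.43%) and 168 (3.21%) at 72 h. With library size alone the median of all genes moved by 0.30 and 0.18, and the calls split into 518 and 102 and into 166 and 94. For the 85 RP genes the median difference was −0.07 at 48 h and −0.12 at 72 h, which turned to 0.23 and 0.06 with library size alone. At 48 h 0 RP genes were called by edgeR (2 at an unadjusted p under 0.05, both negative; DESeq2 was not run over both assays), and at 72 h 1 was, *RPP1A*. Without *rpl9a*∆ 4 RP genes were called at each time, all negative, and with the *rps25*∆ libraries alone 7 negative and 2 positive, and then 13 negative and 1 positive. The difference of *RPP1A* was −2.33 at 72 h (standard error 0.41, adjusted p = 0.000413), where its mRNA, at 191 and 155 CPM, had a log2 fold change of 0.03 from the 164 and 174 of 24 h. Chaperone genes gave 7 negative calls at 48 h and 4 at 72 h, with medians of −0.33 and −0.28. These became 20 and 14 without *rpl9a*∆, where 2 and 3 were positive. Without any one *rps25*∆ library they were 3 to 7 at 48 h and 1 to 4 at 72 h, the lowest without replicate 2 of the 48 h RNC-mRNA and, at 72 h, without either replicate of the 24 h RNC-mRNA or replicate 1 of the 24 h mRNA. Since each sample was split for both assays, libraries of the same time and number may come from 1 culture, which the labels do not state. With that pairing as a block, 203 genes were called positive and 300 negative at 48 h, and 99 and 227 at 72 h. The negative chaperone calls became 9 and 8, with 1 positive at 72 h, and the negative RP calls 0 and 2.

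In Pipas_chr2-2_0015 the assays differed at both times. Its mRNA had 134 and 155 CPM at 24 h, 127 and 106 at 48 h and 269 and 308 at 72 h. Its RNC-mRNA had 71.9 and 81.9, then 25.4 and 24.3, then 58.9 and 88.2. The difference between the assays was −1.36 at 48 h (adjusted p = 0.00236) and −1.07 at 72 h (adjusted p = 0.0193), the latter lost without replicate 2 of the 24 h RNC-mRNA, replicate 1 of the 72 h RNC-mRNA, replicate 1 of the 24 h mRNA or replicate 2 of the 72 h mRNA. For Pipas_chr1-4_0072 it was −1.36 and −1.05 (adjusted p = 0.000472 and 0.00732), with mRNA of 285 and 301 CPM at 24 h and 278 and 277 at 48 h beside RNC-mRNA of 541 and 482 and then 207 and 183. Its 72 h call was lost without replicate 1 of the 24 h RNC-mRNA (adjusted p = 0.0546). Other negative differences at 48 h were those of Pipas_chr2-1_0140 (−1.41), Pipas_chr1-1_0011 (−1.08), Pipas_chr1-4_0043 (−0.86) and Pipas_chr2-1_0322 (−0.77), each of which lost the call without at least 1 of the libraries.

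Whether these changes differed from those of wt over the same times was tested as a difference of differences. It was called for 921 genes (17.6%) in the positive and 1022 (19.5%) in the negative direction in mRNA at 48 h, and for 1046 (20.0%) and 1023 (19.6%) at 72 h. In RNC-mRNA the numbers were 190 (3.65%) and 254 (4.88%), and 368 (7.06%) and 463 (8.89%). With library size alone the median of all genes in mRNA moved by −0.11 and −0.23 and that in RNC-mRNA at 48 h by 0.11, and the mRNA calls split into 651 and 1329 and into 573 and 1527.

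For the RP genes the median difference from wt in mRNA was negative at 48 h and positive at 72 h, while in RNC-mRNA it was negative at both. In wt 45 of the 85 were lower at 48 h and 67 at 72 h, against 10.8 and 15.7% of all genes, with medians of −0.56 and −0.80, while the median in *rps25*∆ went from −0.94 to −0.41. The median difference in mRNA was −0.38 at 48 h, with 11 genes (12.9%) called negative and 1 (*RPS27B*) positive, against 19.5 and 17.6% of all genes. At 72 h it was 0.32, with 10 (11.8%) positive and 1 (*RPS22B*) negative, against 20.0 and 19.6%. The share of RP genes called was thus below that of all genes in each direction. With library size alone the medians were −0.49 and 0.09, with 27 negative and 1 positive calls and then 4 of each. Without *rpl9a*∆ there were 39 negative and 6 positive, and then 36 positive and 5 negative. The 11 negative calls fell to 2 without replicate 2 of 48 h, 4 without replicate 1 of 48 h, 5 without replicate 2 of 24 h and 7 without replicate 1 of 24 h. The 10 positive calls fell to 3 without replicate 1 of 72 h, 4 without replicate 1 of 24 h and 6 without replicate 2 of 24 h. In RNC-mRNA the median difference was −0.47 at 48 h, with 75 of 85 values negative, and −0.14 at 72 h, with 55 negative. The called genes there, all negative, were *RPL8A*, *RPP1A* and *RPS22B* at 48 h (3.53%, against 4.88% of all genes) and *RPP1A* and *RPS22B* at 72 h (2.35%, against 8.89%). Without any one library 1 or 2 genes were called at 48 h, and at 72 h 1 without replicate 2 of 72 h. Without *rpl9a*∆ 12 were negative at 48 h, and 7 negative and 1 positive at 72 h.

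**Figure D5:**
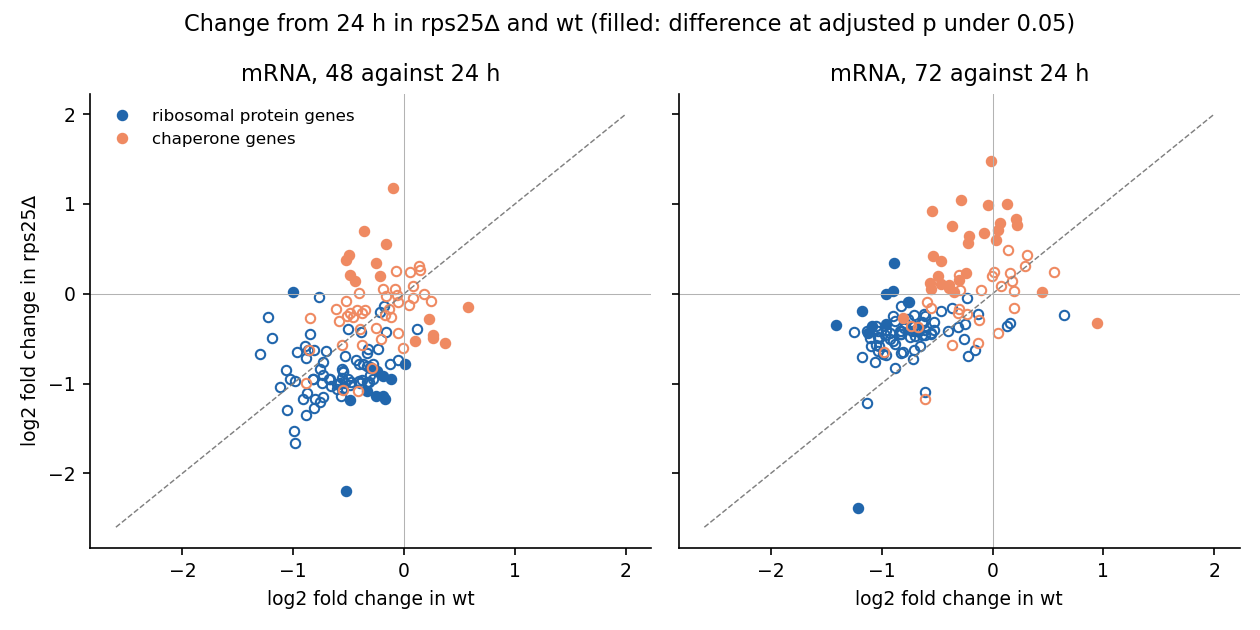
Log2 fold change of mRNA from 24 h in *rps25*∆ against that in wt for 85 ribosomal protein genes and 55 chaperone genes; each point is 1 gene, filled where the difference between the strains has an adjusted p under 0.05, and the dashed line marks equal change. At 72 h 44 of the chaperone genes and 71 of the ribosomal protein genes lie above the line.

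*RPL9B* was the RP gene with the most negative difference in mRNA at 48 h. In wt its mRNA had 274 and 328 CPM at 24 h and 200 and 218 at 48 h, above the 98.6 and 87.0 of *rps25*∆, and the difference between the changes was −1.67 (adjusted p = 0.00580). *RPL7* differed by −0.999 at 48 h (adjusted p = 0.00654), having gone from 427 and 419 to 186 and 188 CPM in *rps25*∆ and from 486 and 498 to 428 and 443 in wt. *RPS27B* mRNA had log2 fold changes in *rps25*∆ of 0.01 and 0.34, neither called, and went in wt from 97.0 and 121 CPM to 55.6 and 53.3 and then 52.7 and 64.8. Its difference was 1.02 at 48 h (adjusted p = 0.0168) and 1.23 at 72 h (adjusted p = 0.00455), the former lost without replicate 1 of 24 h (adjusted p = 0.0514). In RNC-mRNA *RPP1A* in wt had 280 and 279, 236 and 355, and 181 and 300.5 CPM, and the difference was −1.68 at 48 h (adjusted p = 0.0441) and −2.07 at 72 h (adjusted p = 0.00777). The 48 h call of *RPP1A* was lost when any one *rps25*∆ library was left out. *RPL8A* differed by −2.31 at 48 h (adjusted p = 0.00590), where wt was at 278 and 262 CPM.

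In chaperone mRNA at 72 h 26 of 55 genes differed from wt in the positive and 2 in the negative direction, with a median difference of 0.40, against 20.0 and 19.6% of all genes. In wt itself 4 were higher and 18 lower at 72 h than at 24 h, against 14.1 and 15.7% of all genes. With library size alone there were 13 positive and 7 negative calls and a median of 0.16. The 26 positive calls became 19 to 26 when any one *rps25*∆ library was left out and 33 without *rpl9a*∆. At 48 h 9 (16.4%) were positive and 6 (10.9%) negative, below the 17.6 and 19.5% of all genes. In RNC-mRNA at 48 h 2 (3.64%) were called in each direction, no more than the 3.65 and 4.88% of all genes. At 72 h 9 (16.4%) were positive there and 4 (7.27%) negative, against 7.06 and 8.89%, and the 9 became 5 without either replicate of 24 h or replicate 2 of 72 h. Pipas_chr4_0051 had the highest difference in each of these comparisons, and in wt its mRNA stayed between 204 and 230 CPM. Its difference in mRNA was 1.28 at 48 h and 1.49 at 72 h (adjusted p = 1.13e-07 and 4.30e-09). Pipas_chr4_0158 had a difference of 1.47 at 72 h (adjusted p = 2.44e-05), from 1446 and 1385 to 2691 and 2676 CPM in *rps25*∆ and from 3175 and 3025 to 2235 and 2011 in wt. Both genes started lower in *rps25*∆ than in wt at 24 h. Pipas_chr1-3_0102 in RNC-mRNA differed by −2.48 at 72 h (adjusted p = 6.75e-05), where wt was at 2091 and 2049 CPM and *rps25*∆ at 463 and 428. Phy mRNA differed by −0.92 at 48 h (adjusted p = 0.0191) and 0.82 at 72 h (adjusted p = 0.0323), with wt at 3096 and 3185, 4082 and 3940, and 2900 and 2892 CPM. The first was lost without replicate 1 of 24 h or replicate 1 of 48 h (adjusted p = 0.104 and 0.069). The second was lost with library size alone (0.58, adjusted p = 0.070). It was also lost without replicate 2 of 24 h, replicate 1 of 72 h or replicate 2 of 72 h. In RNC-mRNA the difference of Phy from wt was not called at 48 h (−1.82, adjusted p = 0.156) or at 72 h (1.27, adjusted p = 0.299).

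RP genes are short, so the changes were also set against gene length, over genes listed in 1 segment. In mRNA the median log2 fold change at 48 h lay between −0.08 and −0.02 in each of 5 classes of length of about equal size. In RNC-mRNA it went from −0.06 in the shortest class (149 to 698 bp) to 0.17 in the longest (2042 to 14852 bp) at 48 h, and from −0.24 to 0.22 at 72 h. The shortest class without its RP genes had a median of −0.02 at 48 h and −0.23 at 72 h. The RP medians in that assay were −0.94 and −0.52. They are over all 85 RP genes, of which only 53 are listed in 1 segment, so the 2 sets are not matched. The part of gene length in the RNC-mRNA results was not tested.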

How the data were processed

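PolyA+ mRNA and RNC-mRNA of 5 strains at 3 times, 60 libraries, were sequenced, and the submitters' processing notes name bcl2fastq 2.17. Aligner, counter and genome build: not given in the sources used here. For every library, the authors deposited raw read counts for 5319 host genes, with an RPKM per listed length, and a separate table of Phy reads. Tests used the counts, with Phy as 1 more gene. A gene was kept where 2 or more libraries had over 10 reads (5229 in mRNA, 5210 in RNC-mRNA, 5241 in both). In R 4.3.3, edgeR 4.0.16 was fitted with TMM scaling and 1 mean per strain and time to the 30 libraries of an assay, or to all 60 for differences between assays, by its quasi-likelihood method, with Benjamini-Hochberg adjusted p-values at a threshold of 0.05. The biological coefficient of variation was 10.8% in mRNA and 20.9% in RNC-mRNA. Replicates are biological per the paper. The p-values rest on the spread between the 2 replicates of a group, pooled over all strains and times in the fit, not on that of *rps25*∆ alone. No per-library value column was left unused (0).

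Members and gene lists were chosen with earlier results of these data known. Names of 86 RP genes, their pairs and the 55 chaperone IDs come from the paper's supplementary tables, and 0 of the 5319 IDs matched the reference table of 5305 genes (ASM170810v1). Named are Phy and *RPS25*, for each assay and comparison with 24 h the 4 highest and 4 lowest called RP and chaperone genes, the 3 highest and 3 lowest in each difference, the paralog pairs, and 2 unnamed genes in each direction. A gene that this rule also picked is not reported here. *RPS14* and Pipas_chr3_0230, named for a level, were chosen after their values were seen. RPKM was used for levels of the 4868 genes in 1 segment (451 have more). In simulated data of 48 against 24 h with 200 changed genes, the mRNA test (5221 genes) recovered 94% of those changed by 1 on the log2 scale with 8 false calls among 5021, and the RNC-mRNA test (5191 genes) 58% with 4 among 4991. Those counts were drawn from the fitted spread with 1 mean per gene and no other change with strain or time. In the real libraries far more genes changed, so these rates do not carry over to the calls above. The alternatives were scaling by library size or by DESeq2's size factors, DESeq2 1.42.0, other filters, a replicate block, fold change criteria, fits of *rps25*∆ alone or without *rpl9a*∆, and leaving out each *rps25*∆ library in turn, which takes the remaining one to vary as the other groups do. Figures used matplotlib 3.10.9.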

Additional observations from a re-analysis of the deposited data

Results flagged for a closer look

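Whether the change from 24 h in *rps25*∆ differed from that in wt was tested directly (edgeR, adjusted p under 0.05, values on the log2 scale). Many more genes passed than are listed here. The 26 results below are Phy and the 3 highest and 3 lowest RP or chaperone genes of each comparison, where they passed. In mRNA at 48 h these were *RPL9B* (−1.67), *RPL7* (−0.999), *RPS6B* (−0.94), *RPS27B* (1.02), Pipas_chr1-4_0519 (1.06), Pipas_chr4_0051 (1.28) and Phy (−0.92). In mRNA at 72 h they were Pipas_chr2-1_0330 (−1.27), *RPS22B* (−1.17), Pipas_chr1-1_0197 (−0.43), Pipas_chr2-2_0323 (1.32), Pipas_chr4_0158 (1.47), Pipas_chr4_0051 (1.49) and Phy (0.82). In RNC-mRNA at 48 h they were *RPL8A* (−2.31), *RPP1A* (−1.68), Pipas_chr1-3_0063 (−1.55), Pipas_chr2-2_0015 (−1.45), Pipas_chr2-1_0323 (1.76) and Pipas_chr4_0051 (2.07). In RNC-mRNA at 72 h they were Pipas_chr1-3_0102 (−2.48), *RPP1A* (−2.07), Pipas_chr3_0170 (−1.83), Pipas_chr3_0928 (1.26), Pipas_chr2-1_0323 (1.30) and Pipas_chr4_0051 (1.91).

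Some of these lost the call when 1 library was left out, in most cases whichever of several it was. *RPS22B* at 72 h was −0.65 without replicate 2 of 72 h (adjusted p = 0.348) and also missed the threshold without either 24 h library. *RPS6B* missed it without replicate 2 of 24 h or either 48 h library, Pipas_chr1-1_0197 without replicate 2 of 72 h, and Pipas_chr1-3_0063 without either 24 h library or replicate 2 of 48 h. Pipas_chr2-2_0015 missed it without replicate 2 of 24 h or replicate 2 of 48 h, Pipas_chr2-1_0323 at 72 h without either 24 h library or replicate 1 of 72 h, and Pipas_chr3_0928 without replicate 1 of 24 h or replicate 2 of 72 h.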

How the results depend on the processing

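Without any one *rps25*∆ library, genes called ranged in mRNA from 1538 to 2194 at 48 h, 1712 to 2255 at 72 h, 1190 to 1722 for 72 against 48 h and 2623 to 2840 over time, and in RNC-mRNA from 529 to 1346, 523 to 883, 222 to 701 and 1042 to 1480. The difference from wt gave 1514 to 1915 and 1686 to 2037 in mRNA and 222 to 418 and 559 to 776 in RNC-mRNA, and that between assays 132 to 390 and 93 to 229. RP genes called lower were 60 to 73 and 4 to 25 in mRNA and 2 to 13 and 3 to 6 in RNC-mRNA. Chaperone genes called were 10 to 24 and 18 to 23, and 9 to 21 and 3 to 7. Phy ranged from −0.75 to −0.35 at 48 h, 0.52 to 0.91 at 72 h and 1.19 to 1.28 between them in mRNA, and from −1.52 to −1.33, 0.57 to 1.28 and 1.99 to 2.71 in RNC-mRNA.

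With a log2 change over 1 also required, at an adjusted p under 0.05 or an unadjusted p under 0.01, calls in mRNA were 443 or 433 at 48 h, 542 or 533 at 72 h, 356 or 348 for 72 against 48 h, and 687 or 653 and 794 or 773 for the difference from wt. In RNC-mRNA they were 759 or 729, 530 or 533 and 439 or 469. Between assays they were 219 and 146 at the adjusted p. RP genes lower were 24 and 3 in mRNA by either, chaperone genes called 3 and 4 in mRNA and 13 and 2 in RNC-mRNA, and Phy in mRNA (−0.56 and 0.70) was not called.

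Fitting the *rps25*∆ libraries alone (with wt for the difference from it) called 2807, 2184 and 2197 genes in RNC-mRNA, 3469 over time, 1553 and 1807 against wt, and 1540 and 1160 between assays. RP genes lower were 72 in mRNA at 72 h and 84 and 62 in RNC-mRNA, chaperone genes 35 in mRNA at 72 h and 32 and 30 in RNC-mRNA, and Phy in RNC-mRNA passed (−1.43 and 0.97). Without *rpl9a*∆ these counts were 2323, 1701 and 1678, 2940, 1260 and 1562, and 1206 and 829. RP genes were 74 in mRNA at 72 h and 77 and 28 in RNC-mRNA, chaperone genes 35 in mRNA at 72 h and 18 in RNC-mRNA at 72 h, and Phy passed (−1.41 and 0.98). Library size alone gave 620 genes between assays at 48 h and 41 RP genes lower in mRNA at 72 h. DESeq2's size factors gave 21 and its Wald test 30 RP genes lower in RNC-mRNA at 48 h, where the Wald test called Phy (−1.47, adjusted p = 0.0204).

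Replicate numbers were not taken to pair the libraries: deviations of same-numbered *rps25*∆ libraries had correlations of −0.147 to −0.0076 within an assay and −0.047 to 0.133 between the assays of a time, where the labels do not state a shared culture. The replicate block gave 487 genes for 72 against 48 h and 261 for the difference from wt at 48 h in RNC-mRNA, 15 RP genes lower in mRNA at 72 h, 6 in RNC-mRNA at 48 h and 5 chaperone genes in RNC-mRNA at 72 h.

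The median RP difference between assays turned with library size alone from −0.07 and −0.12 to 0.23 and 0.06, and the calls over all genes from mostly negative to mostly positive. Among single genes, reversals were of paralogs, and of Phy between assays, with values that no test had called. *RPS28B* in mRNA at 48 h turned to 0.0075 with DESeq2's Wald test, 0.0034 with its size factors and 0.0015 with *rps25*∆ libraries alone, *RPP1A* at 72 h to −0.017 with library size alone and *RPL2A* to 0.0059 with *rps25*∆ alone. Without any one library, *RPS27B* ranged from −0.019 to 0.080 and *RPS28B* from −0.30 to 0.26 in mRNA at 48 h. At 72 h *RPP1A* ranged from −0.12 to 0.20, *RPP1B* from −0.21 to 0.053, *RPL2A* from −0.040 to 0.050, *RPL6B* from −0.19 to 0.10, *RPS28B* from −0.58 to 0.25 in mRNA and −0.10 to 0.41 in RNC-mRNA, and the difference of Phy between assays from −0.14 up. The cause of these shifts was not tested.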
